A study of Arabidopsis thaliana with 6 samples.

Results

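COR15A, COR15B, COR47 and LTI30 are genes that Arabidopsis thaliana switches on in the cold, and they were compared between leaves of the des1-1 mutant and of the wild type. They were taken as the probe sets that the array annotation pairs with 1 of these 4 genes and no other. This gave 4 of 13355 genes with a probe set of their own, and 1 probe set for each, 4 of the 22746 tested. All 4 were kept because no filter on dim probe sets was applied.

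The study set leaves of 2 genotypes side by side on Affymetrix ATH1 arrays, the wild-type accession Col-0 and the mutant des1-1, which carries an insertion in DES1, a gene of the O-acetylserine(thiol)lyase family of cysteine enzymes. Each genotype had 3 biological replicates with 1 array each. Leaves came from plants of 3 weeks, kept on soil with Hoagland medium under 16 h of light at 20 °C and 8 h of dark at 18 °C, and the labels name no cold or drought treatment. The mutant is represented by 1 insertion line (SALK_03855), so the line and the loss of DES1 cannot be told apart, and DES1 itself was not analysed here, so the labels were not checked against it.

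When an Arabidopsis plant is chilled, the CBF transcription factors bind a short element in the promoters of a set of cold-regulated genes and raise their transcription, and abscisic acid and drought act on many of the same promoters. COR15A and COR15B encode small hydrophilic proteins that are imported into the chloroplast stroma and protect membranes during freezing. COR47 and LTI30 encode dehydrins, disordered proteins of the late embryogenesis abundant (LEA) group that accumulate in dehydrated and cold-treated cells. Dehydrins share a lysine-rich motif, the K-segment. COR47 is an acidic dehydrin that also carries a stretch of serines, and LTI30, also called XERO2, is a basic dehydrin built from K-segments.

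In des1-1 leaves COR15A fell to 62.6% of its wild-type level (95% interval 54.4% to 71.9%, n = 3 arrays each). Its close relative COR15B stood at 75.4% and the dehydrin gene COR47 at 80.7% of the wild type, with no array of des1-1 reaching the lowest wild-type array, but neither passed the test across all probe sets. The second dehydrin gene, LTI30, stood at 106.9%, with overlapping genotypes. Of the 4 cold-response genes, 1 thus passed the test, 2 had lower values in all des1-1 arrays without passing, and 1 showed no separation. Over all 22746 probe sets, 0.0572% passed as lower, and 8.66% had all des1-1 arrays below all wild-type arrays.

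All levels are log2 values made with RMA, and a difference of 1 is a 2-fold difference. The words rose and fell are kept for an adjusted p under 0.05 in limma, a linear model fitted to all 22746 probe sets with Benjamini-Hochberg adjustment over all of them. Over all probe sets 88 passed, which is 0.387%. Of these 13 were lower in des1-1, which is 0.0572%, and COR15A was the 1 gene of the 4 among them. The other 75, or 0.33%, were higher, with none of the 4 genes among them. With 1 array left out at a time the lower calls ran from 0, without wild type 1, wild type 2 or des1-1 2, to 546 without des1-1 1, where they outnumbered the 219 higher calls.

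COR15A, on chromosome 2 (AT2G42540), read 13.21, 12.96 and 13.06 on wild-type arrays 1, 2 and 3, and 12.32, 12.47 and 12.41 on des1-1 arrays 1, 2 and 3. The genotypes were separate, and 0.49 lay between the lowest wild-type and the highest des1-1 array, more than the spread within either genotype. The means were 13.08 ± 0.13 and 12.40 ± 0.08 (SD, n = 3 each), a log2 difference of -0.68 ± 0.09 SE (adjusted p = 0.0228 in limma). In leaf RNA, fewer cells that express a gene and less of its RNA per cell cannot be told apart.

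The decrease of COR15A was large for a bright probe set. Of all 22746 probe sets 100 had a lower log2 difference. Among the 280 with a mean log2 value of at least 12 over the 6 arrays, COR15A had the lowest difference of all, and the median difference of these bright probe sets was -0.01. The cut at 12 was not among the planned comparisons, so this ranking is a description. Only 1 of the 280 passed as lower, and it was COR15A. The highest deposited value was 14.63, above the COR15A value on every array. Whether single probes of the COR15A set had reached the limit of their signal was not tested.

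The COR15A call held in only 1 of 6 fits with 1 array left out. With 1 array left out at a time the log2 difference kept its sign and ran from -0.735 to -0.61, but the adjusted p in limma passed only without des1-1 1 (0.0235). It was 0.109, 0.0696 and 0.0925 without wild type 1, 2 and 3, and 0.0603 and 0.0681 without des1-1 2 and 3. Calls over all probe sets were 88 with all arrays. They were 28, 22 and 20 without wild type 1, 2 and 3, and 765, 39 and 46 without des1-1 1, 2 and 3.

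COR15B (AT2G42530) is the neighbour of COR15A by locus number. It read 12.10, 11.82 and 11.91 on the wild-type arrays and 11.46, 11.60 and 11.55 on the des1-1 arrays. The genotypes did not overlap, with 0.22 between them. The means were 11.94 ± 0.14 and 11.54 ± 0.07 (SD, n = 3 each), a log2 difference of -0.41 ± 0.09 SE with a 95% interval of -0.62 to -0.20 (adjusted p = 0.123 in limma). COR15B passed only when the prior variance was allowed to follow the signal level (adjusted p = 0.0493 in limma).

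COR47 (AT1G20440, chromosome 1) read 11.34, 11.33 and 11.12 in the wild type and 11.04, 11.02 and 10.80 in des1-1. The gap between the genotypes was 0.08, less than the SD within either one. The means were 11.26 ± 0.12 and 10.95 ± 0.13 (SD, n = 3 each), a log2 difference of -0.31 ± 0.10 SE with a 95% interval of -0.53 to -0.09 (adjusted p = 0.194 in limma). Without wild type 2 and des1-1 3 the difference was -0.20 (95% interval -0.46 to 0.06).

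LTI30 (AT3G50970, chromosome 3) read 6.44, 6.56 and 6.60 in the wild type and 6.49, 6.59 and 6.81 in des1-1. The genotypes overlapped, and des1-1 3 was the highest array. The means were 6.53 ± 0.08 and 6.63 ± 0.16 (SD, n = 3 each), a log2 difference of 0.10 ± 0.10 SE (adjusted p = 0.719 in limma). The 95% interval was -0.13 to 0.32, which overlaps that of COR47 (-0.53 to -0.09). Without des1-1 3 the difference was 0.01.

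**Figure D1:**
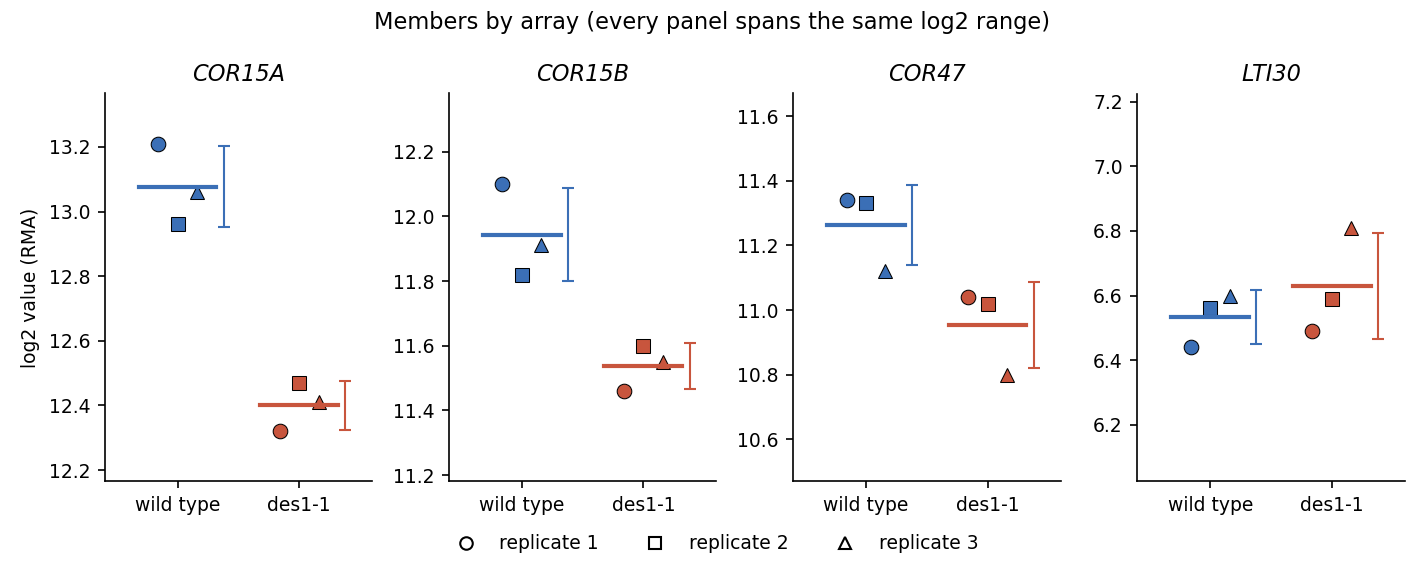
The log2 value (RMA) of each gene on each array, wild type in blue and des1-1 in red, with the symbol giving the replicate number, the thick line the genotype mean and the bar beside it the SD (n = 3). COR15A, COR15B and COR47 do not overlap between genotypes, with gaps of 0.49, 0.22 and 0.08, and LTI30 overlaps.

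No overlap with des1-1 lower was found for 3 of the 4 genes. The same held for 1970 of all 22746 probe sets, 8.66%. The same 3 genes had an unadjusted p under 0.05 with a lower mean in des1-1, which 7.66% of all probe sets had. By size of the log2 difference, 650 probe sets lay below COR15B and 1152 below COR47, or 2.86% and 5.06% of those tested. No gene of the 4 differed 2-fold, and 0.176% of all probe sets did.

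**Figure D2:**
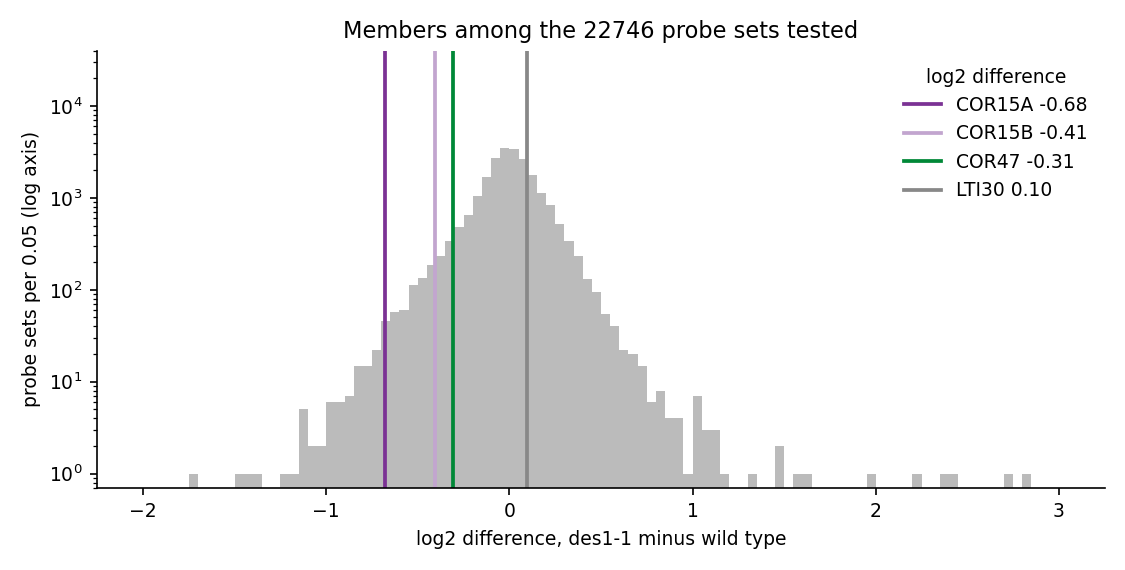
Histogram of the log2 difference (des1-1 minus wild type) of all 22746 probe sets in steps of 0.05, with the count on a log axis and a vertical line for each of the 4 genes. COR15A at -0.68 lies far in the lower tail, COR15B at -0.41 and COR47 at -0.31 on its shoulder, and LTI30 at 0.10 in the bulk.

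Whether the genes differed from each other in their response was tested on the within-array difference of 2 log2 values, for all 6 pairs. Each pair was tested with an exact two-sided permutation test over arrays, in which 3 arrays against 3 cannot give a p under 0.1. The level of such a difference reflects the probes and carries no meaning of its own, whereas its change between genotypes shows unequal change of the 2 log2 values. The part of unequal signal levels of the probe sets in such a change was not tested.

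COR15A minus COR15B was 1.11, 1.14 and 1.15 in the wild type and 0.86, 0.87 and 0.86 in des1-1. COR15A was thus lower relative to COR15B in every mutant array, by 0.27 on the log2 scale, against SDs of 0.02 and 0.01. The exact permutation p was 0.1, the smallest possible, and 0.15 after adjustment over the 6 pairs.

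Against LTI30, COR15A gave 6.77, 6.40 and 6.46 in the wild type and 5.83, 5.88 and 5.60 in des1-1. The pair shifted by -0.77, with no overlap (exact permutation p = 0.1, adjusted 0.15). COR15B against LTI30 shifted by -0.50, also without overlap (exact permutation p = 0.1, adjusted 0.15). COR15A against COR47 shifted by -0.37, with wild-type values of 1.87, 1.63 and 1.94 and des1-1 values of 1.28, 1.45 and 1.61, which do not overlap by a margin of hundredths (exact permutation p = 0.1, adjusted 0.15).

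The remaining pairs overlapped between genotypes. COR47 against LTI30 shifted by -0.41 (exact permutation p = 0.2, adjusted 0.24), where wild type 3 at 4.52 lay below des1-1 1 at 4.55. COR15B against COR47 shifted by -0.10 (exact permutation p = 0.5, adjusted 0.5), within SDs of 0.17 in both genotypes. No pair could pass at 0.05 in this exact test, so the values of the pairs stand as a description.

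**Figure D3:**
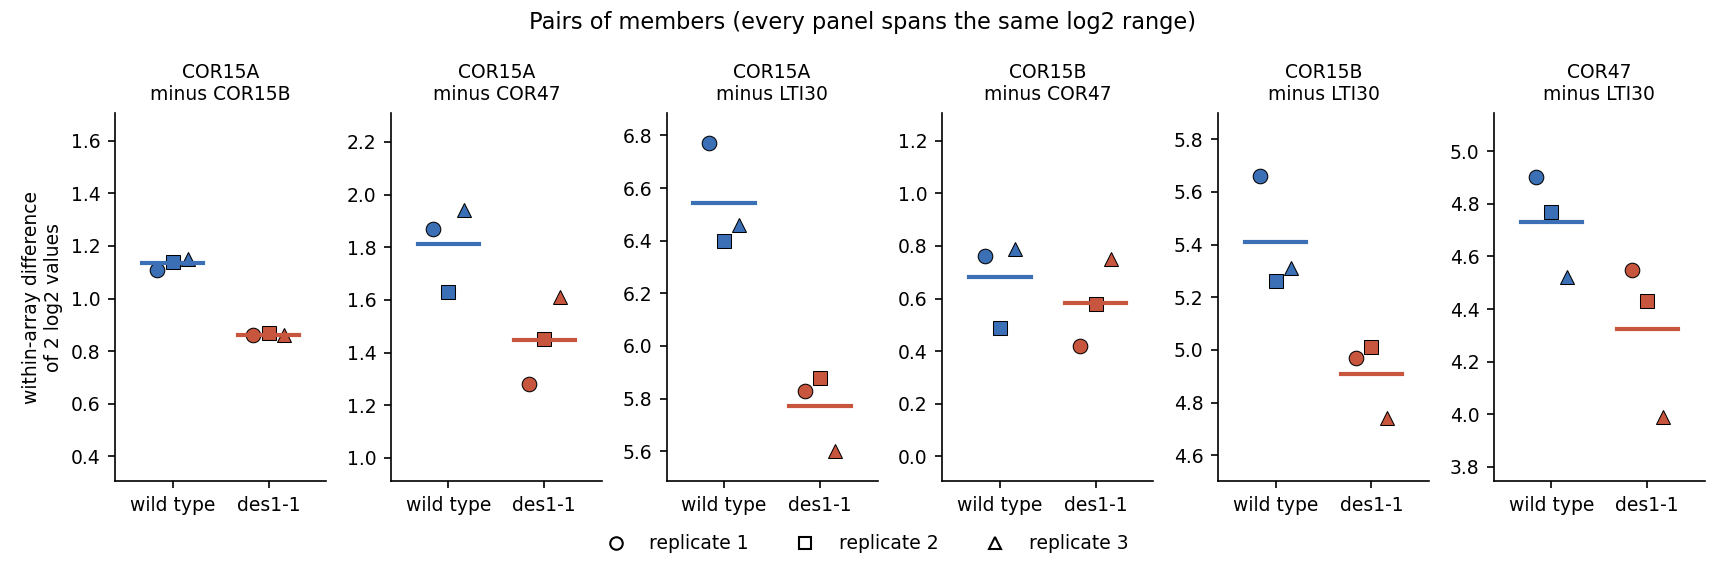
The within-array difference of 2 log2 values for the 6 pairs of genes, with wild type in blue, des1-1 in red, the symbol giving the replicate number and the line the genotype mean. For COR15A minus COR15B the arrays of a genotype nearly coincide, at 1.11 to 1.15 in the wild type and 0.86 to 0.87 in des1-1, while the other pairs scatter more.

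COR15A and COR15B also ordered the arrays of each genotype alike. In both genes wild type 1 was the highest and wild type 2 the lowest wild-type array, and des1-1 2 was the highest and des1-1 1 the lowest mutant array. COR15A deviated from its wild-type mean by 0.13, -0.12 and -0.02 on arrays 1, 2 and 3, and COR15B by 0.16, -0.12 and -0.03. In des1-1 the deviations were -0.08, 0.07 and 0.01 for COR15A and -0.08, 0.06 and 0.01 for COR15B. Whether the probes of one also bind the transcript of the other was not tested.

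The dehydrin genes varied differently within genotypes. COR47 was lowest on wild type 3 and des1-1 3, at 0.14 and 0.15 below the genotype means. LTI30 was highest on those same arrays, at 0.07 and 0.18 above its means.

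The 5 lists of genes of cold regulation, dehydrins and other LEA proteins, further cold- and drought-induced genes, abscisic acid and the circadian clock hold 119 genes, of which 13 had a probe set with 1 named gene. Besides the 4 genes above, 9 of 115 had one, and measured is used here in this sense. Of these 9, 1 rose and 0 fell in limma, where 0.33% of all probe sets rose and 0.0572% fell. An unadjusted p under 0.05 was found for 2 of the 9, both higher, against 7.9% of all probe sets with a higher mean. The median log2 difference of the 9 was -0.02 against 0 over all probe sets. No gene of the abscisic acid list was measured, and the CBF genes were not among the measured regulators.

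Among the regulators, STZ, a zinc finger repressor of stress responses also known as ZAT10, stood 0.44 ± 0.11 SE higher on the log2 scale (adjusted p = 0.138 in limma), with all des1-1 arrays above all wild-type arrays. SIZ1, a SUMO ligase that acts on cold signalling, differed by -0.15 ± 0.11 on its brighter probe set and by 0.11 ± 0.16 on the other. Among induced genes, HIS1-3, a linker histone gene induced by drought, rose by 1.00 (adjusted p = 0.00536). COR27, a cold-regulated gene tied to the clock, differed by 0.19 ± 0.11 and TIL, a temperature-induced lipocalin, by 0.03 ± 0.07. AT4G33980 stood at -0.02 ± 0.10, and the clock gene GI at -0.10 ± 0.08.

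Genes whose names in the reference table hold the words late embryogenesis abundant or dehydrin lay on the same side as COR15A. Of these, 7 had a probe set and are not among the 4 genes, and all 7 had a lower mean in des1-1, with a median log2 difference of -0.21. The dehydrin genes COR47, at -0.31, and LTI30, at 0.10, are not in this count. Over all probe sets 49% had a lower mean. None of the 7 passed in limma. Of the 7, 3 had an unadjusted p under 0.05, against 7.66% of all probe sets in this direction, and the same 3 did not overlap between genotypes, against 8.66%. LEA18, 1 of these 3, gave a weak signal. The planned search also took the words cold or low temperature and gave 9 genes besides the 4. Of these 9, 8 had a lower mean in des1-1 and 1, COR27, a higher one, with a median log2 difference of -0.20. The count of LEA and dehydrin genes alone was not among the planned ones.

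AT2G44060, named LEA26 in that table, read 10.94, 10.83 and 10.93 in the wild type and 10.73, 10.53 and 10.37 in des1-1 (log2 difference -0.36 ± 0.10 SE, adjusted p = 0.162 in limma). AT2G46140, named LEA27, differed by -0.25 ± 0.09 (adjusted p = 0.233) and LEA18 by -0.23 ± 0.08 (adjusted p = 0.213). The small dehydrin gene HIRD11 (AT1G54410) read 13.07, 13.11 and 13.01 in the wild type and 13.04, 12.89 and 12.64 in des1-1, overlapping, with a log2 difference of -0.21 ± 0.11 SE (adjusted p = 0.397). The dehydrin gene LEA differed by -0.20, LEA4-5 by -0.08 and AtLEA4-1 by -0.04. LEA18 and AtLEA4-1 gave weak signals, averaging 4.48 and 4.73 in the wild type, near or below the lower quartiles of the arrays, 4.69 to 4.78, where differences are compressed. LEA was also weak, averaging 4.96 in the wild type and 4.76 in des1-1. SRC2, named after a soybean gene regulated by cold, differed by -0.11 ± 0.09.

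**Figure D4:**
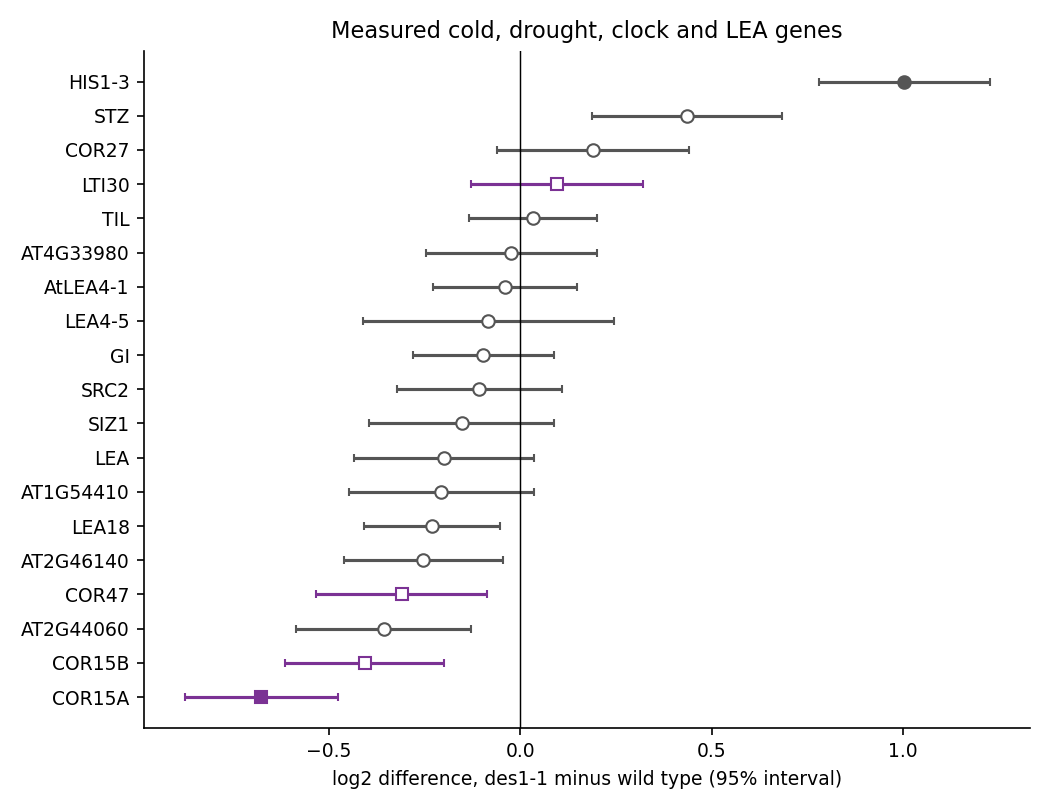
Log2 difference (des1-1 minus wild type) with its 95% interval for the 19 measured genes of the cold, drought and clock lists or with LEA, dehydrin or cold in their names. Purple squares are the 4 genes of the report, grey circles the others, and filled symbols have an adjusted p under 0.05. COR15A is the lowest and HIS1-3 the highest, and most LEA and dehydrin genes lie left of 0.

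Apart from the neighbours COR15A and COR15B themselves, 4 genes next to them had a probe set of their own. Within 2 locus numbers, AT2G42520 beside COR15B differed by 0.18 ± 0.10 SE and AT2G42560 beside COR15A by -0.09 ± 0.08. AT1G20430 beside COR47 differed by 0.29 ± 0.13, and AT3G50990 beside LTI30 by 0.02 ± 0.08. None of these 4 neighbours passed in limma (adjusted p from 0.343 to 0.943), and 0 had an unadjusted p under 0.05.

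Likeness of profiles was measured as the root mean square difference over the 6 arrays after each probe set was centred on its mean. The named genes nearest to COR15A were ATATH8 (0.085), ndhH (0.093), which encodes a subunit of the chloroplast NDH complex, AT1G30440 (0.116), AT1G31690 (0.121) and AT1G67870 (0.134). COR15B followed next as the sixth (0.136), COR47 was at position 223 and LTI30 at position 10334. The log2 differences of the 5 nearest genes ran from -0.64 to -0.49 on these probe sets. Another, brighter probe set of AT1G31690 differed by -0.03.

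Nearest to COR15B were AT3G05050 (0.060), EX1 (0.070), the gene of the chloroplast protein EXECUTER1, and AT1G33680 (0.072). Another probe set of AT1G33680 differed by -0.11 against -0.36. Nearest to COR47 were AT4G34450 (0.021), AT3G28040 (0.033) and AT1G73350 (0.034). From COR47, COR15B stood at 0.143 and position 1407. LTI30, whose values spanned 0.37 over the arrays, was given no nearest genes.

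The arrays were alike in signal, with medians of 5.78 to 5.81, and pairs of arrays correlated at 0.987 to 0.997 across probe sets. The leaf genes RCA, PRK, LHCB4.1 and LHCB4.2 were bright on every array, with a list mean of 13.2 to 13.4, and the root hair markers EXPA7 and EXPA18 were dim, with a list mean of 5.07 to 5.54. Neither list had a gene past the test. PRK, a Calvin cycle enzyme gene, read 13.08, 13.24 and 13.10 in the wild type and 13.03, 12.91 and 12.96 in des1-1, lower without overlap (log2 difference -0.17 ± 0.08 SE, adjusted p = 0.335 in limma). Of the seed markers, whose tissue also makes LEA proteins, 0 of 3 had a probe set with 1 named gene. Wild type 2 stood apart in its 25S ribosomal RNA control, 10.2 against 5.49 to 6.20 on the other arrays, and in the mean of the added bacterial and phage controls, 10.4 against 9.65 to 9.96. It was the lowest wild-type array for COR15A and COR15B, and without it their log2 differences were -0.735 and -0.47. The GAPDH control's 3 prime less its 5 prime signal, a sign of RNA quality, came to -0.74, -0.65 and -0.66 in the wild type and -0.57, -0.32 and -0.51 in des1-1. The same measure of actin overlapped, at 1.28 ± 0.17 and 1.32 ± 0.08 (SD, n = 3 each). The part of PRK or of either control in the lower COR15A, COR15B and COR47 values was not tested.

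**Figure D5:**
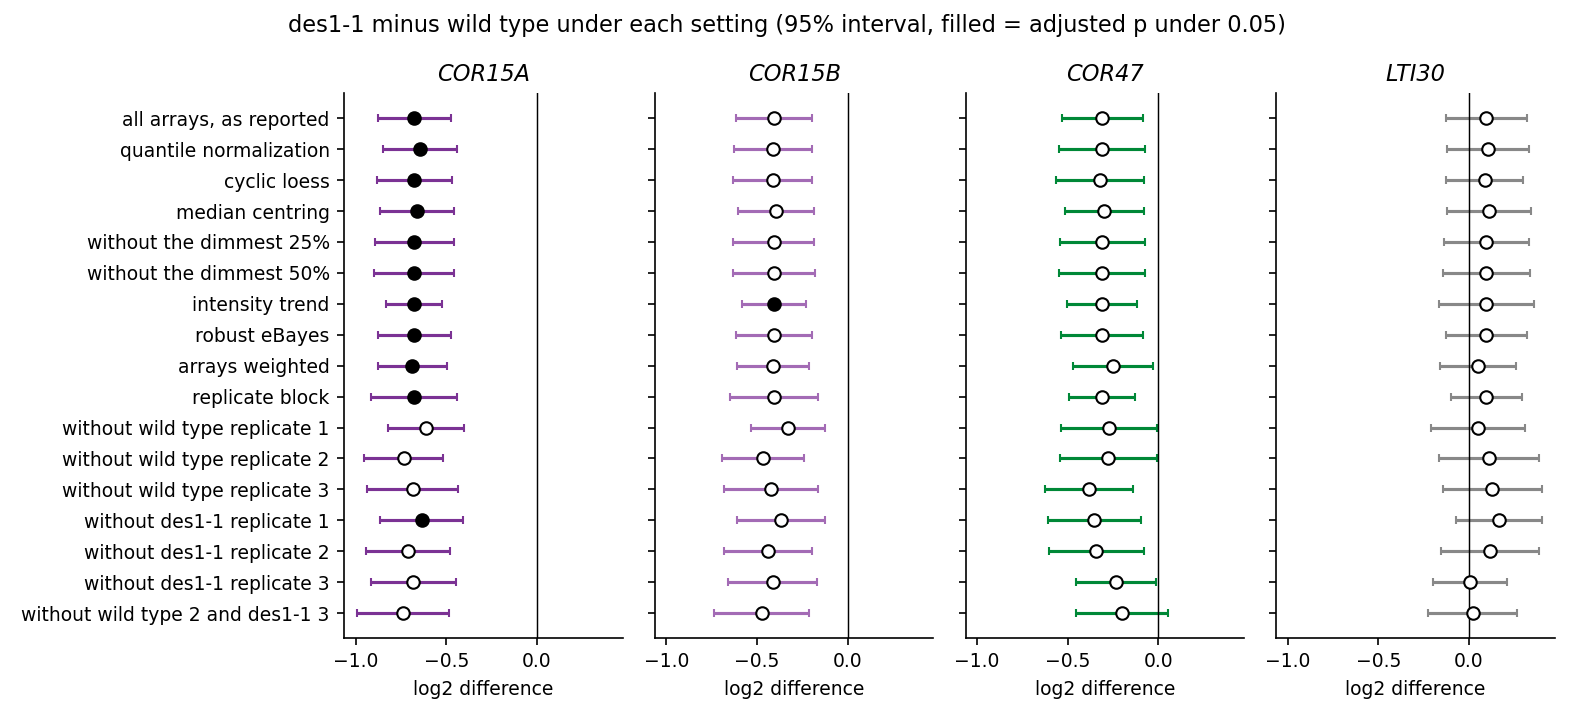
Log2 difference (des1-1 minus wild type) with its 95% interval for each gene under the reported fit and 16 other settings, with filled circles for an adjusted p under 0.05. COR15A stays left of 0 under all settings and is filled in 10 of the 16, COR15B is filled once, and COR47 and LTI30 never.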

How the data were processed

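The values the authors deposited are on the log2 scale. Per the submitters' processing notes they were made by RMA in affy, whose versions are not given in the sources used here. RMA subtracts background, gives all arrays 1 distribution and summarises the probes of a set. It thereby removes array-wide shifts and compresses differences of dim probe sets. Replicates are biological, per the labels, and arrays have no read depth, so their number limits the precision.

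Of 22810 probe sets, 64 controls were left out of the tests. A platform annotation named 13513 of the others with 1 gene, and the TAIR10.1 gene table (13436 matched) supplied symbols and loci. The genotype comparison used limma 3.58.1 under R 4.3.3, with lmFit and default eBayes, no covariate, all 6 arrays and two-sided tests. The fit was tested on simulated data. Pairs of genes were compared by exact permutation in scipy 1.17.1, and plots drawn with matplotlib 3.10.9. For named genes the rule was the 4 genes, their list neighbours, the 5 or 3 nearest profiles and loci within 2 numbers. A list gene with more than 1 probe set was represented by its brightest. As alternatives the scaling, a filter on dim probe sets, eBayes settings, weights on arrays, a block for replicate number and the set of arrays were varied. The genes and lists were chosen with earlier results of these data known. The epidermis, vasculature, flower and dividing-cell marker lists had no gene with a probe set named for it alone, and none of 3 measured stomatal genes passed.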

Additional observations from a re-analysis of the deposited data

How the results depend on the processing

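All 16 alternatives kept the sign of all 4 genes. The COR15A call held in the 9 that kept all 6 arrays (log2 difference -0.69 to -0.65, adjusted p 0.000994 to 0.0465), was lost in 5 of 6 fits with 1 array left out (-0.735 to -0.61) and without wild type 2 and des1-1 3 together (-0.74, adjusted p = 0.172). COR15B ran from -0.47 to -0.33 with 1 array left out and passed with an intensity trend in eBayes (-0.41). COR47 ran from -0.38 to -0.23 and LTI30 from 0.01 to 0.17 with 1 array left out, without a call. Calls over all probe sets were 88, and became 151 with the trend, 183 with the replicate block (94 higher, 89 lower), 20 to 765 with 1 array left out (0 to 546 lower, 19 to 219 higher) and 9 without wild type 2 and des1-1 3. Calls on the 5 lists were 2, and became 1 to 3 with 1 array left out and 0 without wild type 2 and des1-1 3. With 1 array left out, the highest counts were those without des1-1 1 (765 calls, 546 of them lower, and 3 on the lists). The cause was not tested. COR15A minus LTI30 ran from -0.845 to -0.66 over its 9 alternatives. By Pearson correlation 0 of the 5 genes nearest to COR15A remained. Other normalizations moved the median difference of all probe sets by at most 0.013. Arrays of the same number gave correlations of 0.17, -0.23 and 0.21 between their deviations from the genotype means. Arrays of unlike number gave -0.31 to 0.16. As the same-number values differed in sign, the replicate numbers were not taken to pair the arrays. With the block COR15A kept its call (adjusted p = 0.0465 in limma), and COR15B and COR47 stayed without one (adjusted p = 0.121 and 0.117).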

Other observations

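The closeness of COR15A and COR15B within genotypes was looked up after their values had been seen. The within-array difference between a probe set and COR15A had a pooled SD within genotypes of 0.015 for COR15B, against a median of 0.148 over the 22745 other probe sets, which placed COR15B second. Measured from COR15B, COR15A was first. From COR15A, COR47 stood at 0.164 and LTI30 at 0.176, both above the median. COR47 and LTI30, the pair of dehydrin genes, were farther apart within genotypes, at 0.249.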
